A study of Homo sapiens with 2 samples.

Results

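The DNA replication genes are a list of 41 named genes whose products license, unwind and copy DNA, among 19794 protein-coding genes in all. They were chosen by name and not by a threshold on any measured value, although earlier results of these data were already known. Every one was found in the gene annotation. By role they fall into 5 groups: 8 licensing genes (ORC1 to ORC6, CDC6 and CDT1), 14 helicase genes (MCM2 to MCM7, MCM8, MCM10, CDC45, GINS1 to GINS4 and TOPBP1), 8 polymerase genes (POLA1, POLA2, POLD1, POLD2, POLD3, POLE, POLE2 and POLE3), 6 clamp genes (PCNA and RFC1 to RFC5) and 5 genes of single-strand binding and ligation (RPA1 to RPA3, FEN1 and LIG1).

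The binding of nuclear respiratory factor 1 (NRF-1) was mapped in a human glioblastoma cell line, U251, whose cells had received either a control siRNA (siControl) or one that targets the transcriptional cofactor AATF (siAATF). Chromatin was immunoprecipitated with an NRF-1 antibody and made into libraries by ChIPmentation, in which a transposase adds the adapters while the chromatin is on the beads. The question behind the comparison was whether AATF affects where NRF-1 sits. Each condition is represented by 1 list of broad peaks on hg19, labelled as replicate 1 although the protocol describes duplicates. The sample labels name U251 while the design text names U138, another glioblastoma line, and the sample labels were followed. Without a second list per condition no difference between siControl and siAATF has a replicate check, and no p-value is given. By the study's account a single siRNA sequence against AATF was used for these libraries, and the paper shows a western blot of the transfected cells. The depletion of AATF cannot be checked in the peak lists themselves.

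Replication origins are licensed in G1, when the origin recognition complex, CDC6 and CDT1 load the MCM2 to MCM7 ring onto DNA. In S phase CDC45 and the GINS complex join the ring to form the active helicase, polymerase alpha lays down primers, and polymerases delta and epsilon extend them with the sliding clamp PCNA, which the RFC complex loads. RPA covers the single strands, and FEN1 and LIG1 finish the lagging strand. Many of these genes are textbook targets of E2F factors at the transition from G1 to S, whereas NRF-1 is best known for binding a GC-rich palindrome in promoters of genes for mitochondrial proteins and of many housekeeping genes.

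An NRF-1 peak lay at the promoter of 40 of 41 replication genes in siControl (97.6%, exact 95% interval 87.1 to 99.9), against 61.1% of all coding genes, and of 41 of 41 in siAATF, against 60.7%. A promoter here reaches 1 kb upstream and downstream of each start of a coding transcript of the gene. The exception in siControl was RFC4, a subunit of the clamp loader. The lists hold 18014 and 18454 peaks and reach down to a −log10 q of 1.03 and 1.02, where −log10 q is the peak caller's significance and higher values mean a more certain peak. At a −log10 q of at least 5, 35 of 41 genes kept a peak in siControl (85.4%, 70.8 to 94.4), against 51.5% of all coding genes, and 35 of 41 in siAATF, against 51.4%. RFC4, ORC1, CDC45, TOPBP1 and POLE2 were under this level in both lists. MCM8 passed it only in siControl (5.04 and 4.57) and MCM10 only in siAATF (4.60 and 5.51), both close to the limit. The intervals treat genes as independent draws and cover counting error only, and the depth of the libraries is unknown.

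Peak strength was then set out as a percentile rank by fold enrichment within each list, with 0 marking the weakest and 100 the strongest of all its peaks, because fold enrichments are relative to their own library. A gene's peak is its promoter peak of highest −log10 q in siControl, paired with the siAATF peak that overlaps it most. The median rank of the replication genes was 73.5 in siControl and 67.5 in siAATF, beside 63.2 and 64.3 over all coding genes with a peak. Ranked by −log10 q instead, the medians were 67.9 and 63.8, beside 65.2 and 66.2. The middle 50% of the 40 ranks in siControl ran from 44.9 to 88.0, so the replication genes spread over much of the list and their ranks by −log10 q were centred near those of coding genes at large.

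**Figure D1:**
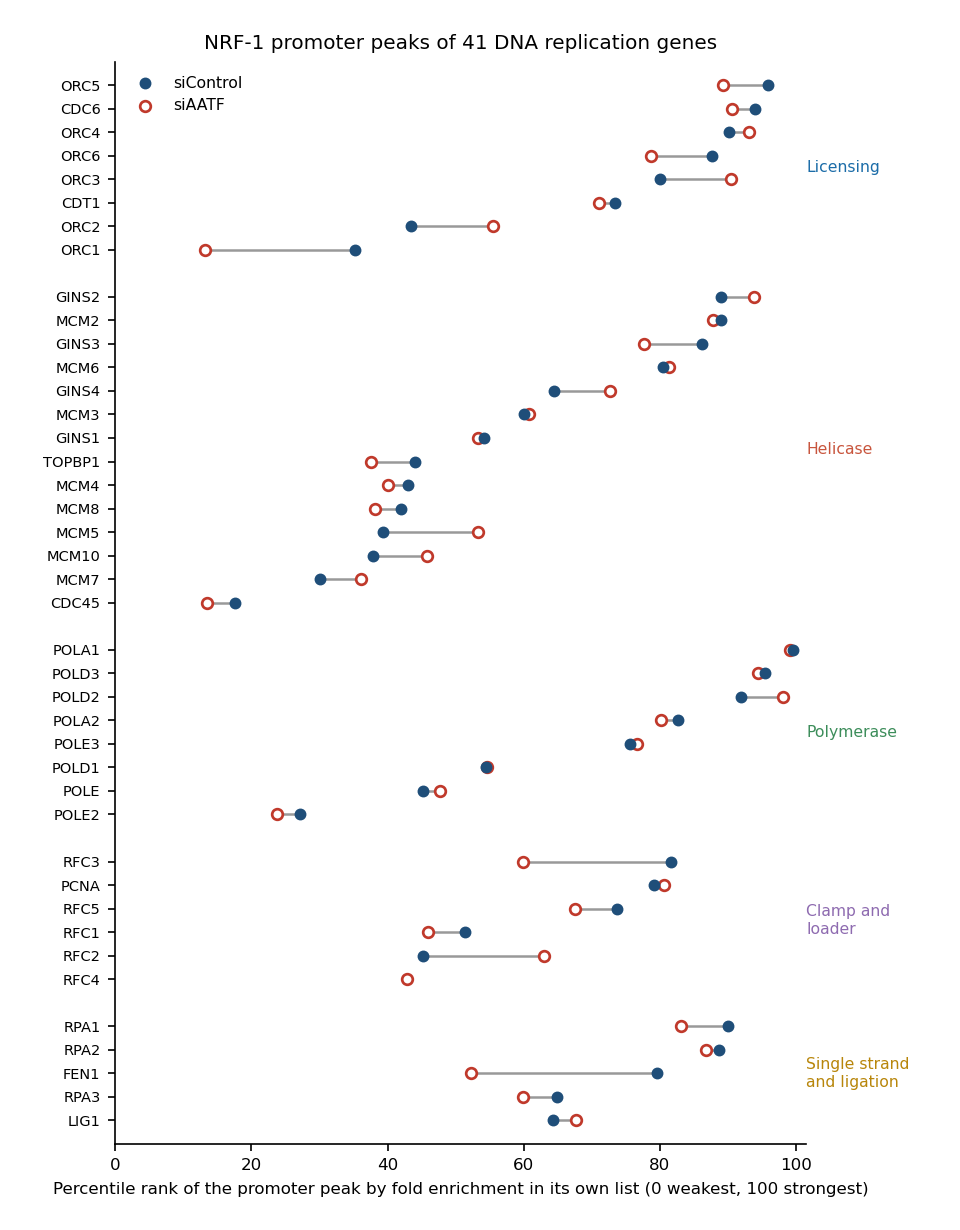
Percentile rank by fold enrichment (horizontal axis, 0 weakest to 100 strongest peak of the own list) of the promoter peak of each of the 41 genes in siControl (filled) and siAATF (open), joined by a line and ordered within groups by the siControl rank. Most pairs lie close together, the long lines belong to FEN1, ORC1, RFC3, RFC2 and MCM5, and RFC4 has a siAATF point alone.

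The rank plot by gene shows the groups side by side. Licensing genes had a median rank of 83.8 in siControl and 83.9 in siAATF, polymerase genes 79.2 and 78.4, and helicase genes 49.1 and 53.3. Clamp genes had 73.7 and 61.4, and the single-strand and ligation genes 79.6 and 67.6. By −log10 q the medians were 74.7 and 74.5 for licensing, 84.6 and 85.8 for polymerases, 51.6 and 55.6 for the helicase, 53.2 and 48.2 for the clamp, and 78.7 and 80.9 for single-strand binding and ligation. The helicase group was thus below licensing and polymerases under both rankings, while every group overlapped every other gene by gene and no test was made between them, because genes are not replicates. Where each gene was given the peak nearest its canonical start, the polymerase median was 65.1 and 65.6, since POLD3 then took a weak peak.

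**Figure D2:**
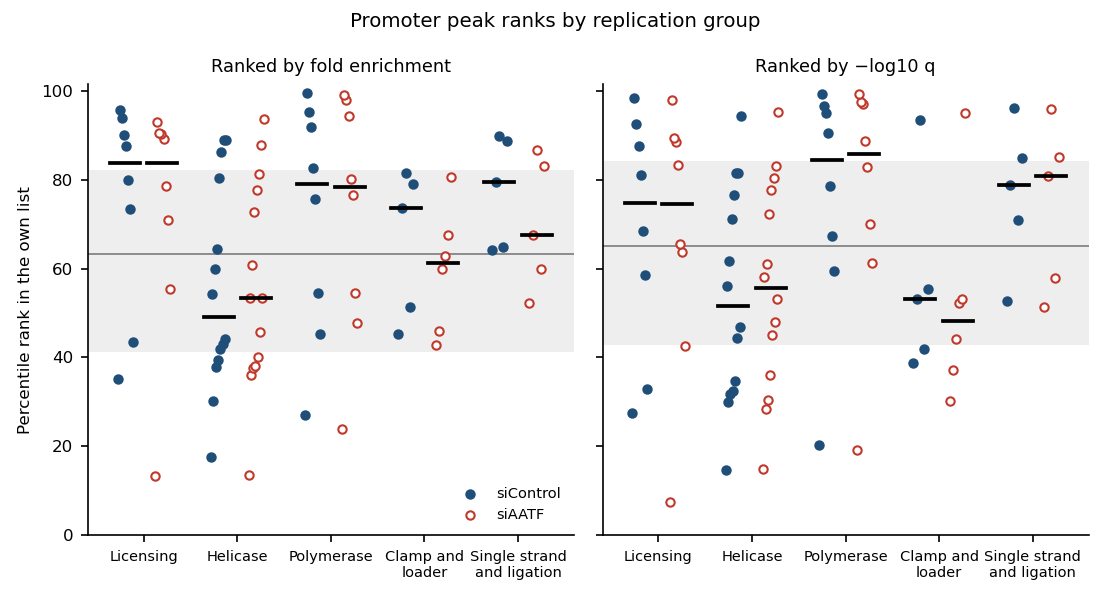
Percentile ranks of the promoter peaks by group, by fold enrichment (left) and by −log10 q (right), with 1 point per gene for siControl (filled) and siAATF (open) and a bar at each median. The grey line and band are the median and the middle 50% of all coding genes in siControl (by fold, 41.5 to 82.1 about 63.2). The helicase medians lie below the line in both panels, as do the clamp medians by −log10 q and the siAATF clamp median by fold.

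Among the licensing genes, CDT1, which brings the MCM ring to origins, had the most significant peak, with a −log10 q of 88.3 in siControl and 76.8 in siAATF. ORC6, the smallest subunit of the origin recognition complex, followed with 69.8 and 55.0, and ORC4 with 56.0 and 53.0. CDC6, the ATPase that acts with ORC in loading the ring, had 39.7 and 40.7. These genes were strong in both conditions. By fold the highest licensing rank in siControl was that of ORC5, 95.8, from a peak of 508 bp, and in siAATF that of ORC4, 93.1, where ORC5 had 89.2. ORC2 and ORC3 stood higher in siAATF, with ranks of 43.5 and 55.4 for ORC2 and 80.0 and 90.5 for ORC3.

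ORC1, an ATPase subunit of the complex, had the lowest licensing rank in both lists. Its fold enrichment was 4.88 in siControl and 3.75 in siAATF, its −log10 q 4.25 and 2.01, and its rank 35.2 and 13.2. The peak was 594 bp wide in siControl and 372 bp in siAATF. Of 11749 coding genes with a paired peak, 2.26% had a rank difference as low or lower. The ORC1 difference stood alone among licensing genes: the next lowest were ORC6 at −9.09 and ORC5 at −6.55 points, and the highest were ORC2 at 11.9 and ORC3 at 10.5.

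The sequence under the peaks was searched on both strands for the 10-base NRF-1 core, GCGCATGCGC, with up to 1 mismatch. A scrambled palindrome of the same bases, GCGACGTCGC, served as a control word. Also searched were 4 words of the E2F type (TTTGGCGC, TTTGGCGG, TTTCCCGC and TTTCGCGC) and the NF-Y word CCAAT. A match describes letters and is not a shown binding site. CDT1 held 2 exact cores that began at −158 and −118 of its canonical start on chromosome 16, both within 100 bp of the peak midpoint. The stretch is printed because it carries both kinds of word next to the start: hg19 chr16:88870019-88870196, plus strand, ending 1 base before the start, with no annotated exon of the gene over it. The capitals mark the 2 cores and then a pair of E2F words that abut each other, the first of them on the opposite strand.

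CDT1: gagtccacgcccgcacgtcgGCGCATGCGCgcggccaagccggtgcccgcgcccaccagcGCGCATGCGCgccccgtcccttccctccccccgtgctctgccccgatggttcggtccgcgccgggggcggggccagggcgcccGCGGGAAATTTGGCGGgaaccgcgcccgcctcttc

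ORC6 was the other licensing gene with a core. Its exact copy began at −129 of the start (window hg19 chr16:46723432-46723461, plus strand, core in capitals), and it held 5 CCAAT words but no E2F word. The head-to-head neighbour VPS35 starts 481 bp away under the same peak.

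ORC6: cgctattgatGCGCATGCGCaaaaggaaga

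ORC1, ORC2, ORC4 and ORC5 held neither a core nor an E2F word. CDC6 and ORC3 held E2F words alone. The 2 E2F words of CDC6 flanked its start, at −28 to −21 and at 7 to 14, so the strong CDC6 peak had no core within 1 mismatch. The peaks of ORC1, ORC3 and ORC4 also covered the start of a gene on the opposite strand, PRPF38A at 179 bp, RARS2 at 107 bp and MBD5 at 274 bp, and a peak list does not say which of a pair of starts a peak belongs to.

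Within the helicase group, MCM2 was the most significant, with a −log10 q of 73.9 in siControl and 68.7 in siAATF. MCM4 had 41.02 and 35.1, and MCM6 had 40.6 and 40.4. The remaining ring subunits were much weaker: MCM3 had 8.73 and 8.48, MCM7 had 7.88 and 10.3, and MCM5 had 5.52 and 7.69. The 6 subunits of 1 ring therefore ran from 5.52 to 73.9 in siControl, with MCM2, MCM4 and MCM6 high and MCM3, MCM5 and MCM7 low in both lists. MCM2, MCM4 and MCM6 were also the ring genes whose peaks held a core with 1 mismatch.

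MCM4 showed how far the rankings can part, since its peak of 1684 bp ranked 42.9 by fold and 81.7 by −log10 q in siControl. It spans from MCM4 to the divergent gene PRKDC, which starts 763 bp away, and its core began at −795 of the MCM4 start and was centred at −14 of the PRKDC start. MCM7 also had a wide peak of 1460 bp, ranked 30.1 by fold and 44.3 by −log10 q in siControl, shared with AP4M1 at 160 bp. MCM2 shared its peak with TPRA1 at 144 bp, and MCM8 with TRMT6 at 94 bp.

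CDC45, which activates the ring, had the weakest helicase peak. The siControl peak had a −log10 q of 2.72 and the siAATF peak 2.66, at ranks of 17.5 and 13.4. In siControl the promoter held 2 separate peaks of 200 and 561 bp, and in siAATF 1 peak of 1394 bp overlapped both. MCM10, which helps to start the helicase, had 4.60 and 5.51, and TOPBP1, the scaffold at firing origins, had 4.93 and 4.23. MCM8, a relative of the ring subunits that acts with MCM9 in recombination, had 5.04 and 4.57. All 4 had a −log10 q close to or under 5 in both lists, though only CDC45 was near the end of the ranking by fold.

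The GINS genes differed among themselves. GINS2 had the highest helicase rank, 88.9 in siControl and 93.8 in siAATF, with a −log10 q of 30.8 and 30.1. GINS3 had 15.7 and 14.0, and GINS4 had 12.4 in both. For GINS1 the stronger peak, at 23.7 and 23.1, lay 17.2 kb upstream of its canonical start at an alternative start beside that of ABHD12, while the peak at the canonical start had 7.03 and 5.57. The largest helicase rank differences were those of MCM5 at 13.9, GINS4 at 8.34, MCM10 at 7.82 and GINS3 at −8.52 points.

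Of the 14 helicase genes, 12 held an E2F word in the peak (85.7%), beside 12.5% of all coding genes with a peak. The exceptions were GINS1 and GINS4. A core was held by 4 of the 14 (28.6%), near the 23.8% of all coding genes with a peak. The cores of MCM2, MCM6 and GINS3 follow, each with 10 bases on either side and the core in capitals. MCM2 and MCM6 have theirs upstream, from −183 and from −197, at hg19 chr3:127317061-127317090 (plus strand) and chr2:136634191-136634220 (minus strand). That of GINS3 is in coding exon 1, at chr16:58426647-58426676 (plus strand). Counted from 1 at the 5′ end of the core on the gene's strand, with the core's base first, the mismatches were T6C in MCM2, T6G in MCM6 and T6G in GINS3.

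MCM2: gcgcaggcgaGCGCACGCGCacagcgccgg
MCM6: cggctacactGCGCAGGCGCaaaggcagat
GINS3: ctggagcggaGCGCAGGCGCcgagactgac

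E2F words are shown for some helicase genes because most of the group holds one. Of the 20 matches in the group, 10 in 9 genes began within 50 bp of the canonical start, while those of MCM4, MCM5 and MCM6 all lay farther upstream. The windows of 30 bases lie at hg19 chr2:136634085-136634114 and chr2:136634147-136634176 (MCM6), chr22:35795923-35795952 (MCM5), chr6:52149526-52149555 (MCM3), chr7:99699011-99699040 (MCM7), chr3:127317245-127317274 (MCM2), chr22:19467407-19467436 (CDC45), chr10:13203552-13203581 (MCM10) and chr3:133380774-133380803 (TOPBP1). MCM3, MCM6, MCM7 and TOPBP1 are read on the minus strand, and the capitals mark 1 word each, or its reverse complement. In MCM2, MCM5 and MCM6 a second word of the list overlaps the one shown in capitals on the other strand, so their matches are not separate.

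MCM6 (nearer the start): cattggtcaggTTTGGCGCgaaatctccag
MCM6 (farther): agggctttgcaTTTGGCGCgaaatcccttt
MCM5: ccagccagaagTTTCGCGCcaaattgttcc
MCM3: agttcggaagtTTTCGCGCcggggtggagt
MCM7: ggggggcgacgTTTCGCGCcaatttcggtt
MCM2: cgtgaaccactTTTCGCGCgaaacctggtt
CDC45: aggagccgtgaTTTGGCGGgagtcttgacc
MCM10: ccggttggaatTTTGGCGGgttcagctgtg
TOPBP1: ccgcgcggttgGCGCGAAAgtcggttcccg

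The word in CDC45 ran from −25 to −18, that in MCM10 from 5 to 12, that in MCM7 from −9 to −2 and that in MCM3 from −4 to 3 of the canonical start. The peaks over these words in CDC45 and MCM10 were among the 4 lowest of the 40 by −log10 q in siControl.

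The polymerase genes had the highest group median by −log10 q, and by fold the licensing median was higher. POLD3, an accessory subunit of polymerase delta, had the highest −log10 q of all 41 genes, 95.4 in siControl and 84.6 in siAATF. That peak lies 99.2 kb upstream of the canonical POLD3 start, at an alternative coding start beside the start of LIPT2, a lipoyl transfer enzyme. At the canonical start POLD3 had a −log10 q of 3.09 and 4.60 and ranks of 23.5 and 42.7. The peak of high value covers both the alternative POLD3 start and the LIPT2 start, and the list does not say which it belongs to. The peak at the canonical POLD3 start was weak in both lists.

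POLD1, the catalytic subunit of polymerase delta, had 80.6 and 75.1, POLA2, the accessory subunit of polymerase alpha, had 75.7 and 73.3, and POLA1, its catalytic subunit, had 64.1 and 53.4. POLA1 had the highest rank by fold of all 41 genes, 99.6 in siControl and 99.2 in siAATF, at fold enrichments of 11.04 and 9.91. POLD2 ranked 92.0 and 98.0. POLD1, under a peak of 1297 bp, ranked 54.5 and 54.6 by fold but 96.6 and 97.5 by −log10 q. The subunits of polymerase epsilon were weaker: POLE had 14.3 and 14.2, POLE3 had 19.99 and 20.9, and POLE2 had 3.31 and 3.09 with ranks of 27.1 and 23.8. With these peaks no polymerase gene had a rank difference above 6.06 points in either direction.

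POLE shared its peak with PXMP2 at 245 bp and POLE3 with C9orf43 at 67 bp. Cores were found in POLA1, POLA2, POLD1 and the distal POLD3 peak, and in none of POLD2, POLE, POLE2 and POLE3. They are printed because the 4 genes with a core had siControl values of 64.1 or more and the other 4 had 34.7 or less. The windows are hg19 chrX:24711778-24711807 for POLA1, chr11:65029283-65029312, chr11:65029301-65029330 and chr11:65029374-65029403 for POLA2, chr19:50887852-50887881 for POLD1, and chr11:74204394-74204423 and chr11:74204400-74204429 for POLD3, all on the plus strand, with the core in capitals.

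POLA1: cagcatgcgtGCGCTTGCGCagtctccagg
POLA2 (farthest upstream): gcccgctgatGCGCACGCGCcctgggccgc
POLA2 (middle): gccctgggccGCGCGTGCGCgcgtggggtt
POLA2 (nearest the start): tcccggtttcGCGCATGCGTgcactgcaca
POLD1: cgggcaggggGCGCATGCGCcgggcaccgt
POLD3 (farther upstream): gcgacgctacGTGCATGCGCaagcgcaggc
POLD3 (nearer): ctacgtgcatGCGCAAGCGCaggccgagac

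The POLD1 copy is exact and lies in intron 1, from 258 to 267 of the canonical start. The mismatches, counted as before, were A5T in POLA1, T6C, A5G and C10T in the 3 POLA2 copies from left to right, and C2T and T6A in POLD3. The last POLA2 copy overlaps an E2F word, and the POLD3 copies overlap each other.

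PCNA, the sliding clamp, had a −log10 q of 71.8 in siControl and 68.2 in siAATF, at ranks of 79.2 and 80.6. This peak is 6.97 kb upstream of the canonical start, at an alternative PCNA start facing CDS2. The canonical PCNA start had a peak of its own, with 25.99 and 27.2 and ranks of 61.6 and 64.4. Both PCNA peaks were alike in rank in siControl and siAATF. The distal one held a core with the mismatch T6C (hg19 chr20:5107440-5107469, minus strand) and the only match to the control word among the 41 genes.

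PCNA: cggagcgagtGCGCACGCGCagcgccacca

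The clamp loader genes were weaker. RFC3 had a −log10 q of 12.1 in siControl and 7.43 in siAATF, RFC5 had 11.1 and 9.94, RFC2 had 7.20 and 10.3, and RFC1 had 6.45 and 5.74. RFC4 had no siControl peak, the nearest being 20678 bp from its canonical start. The siAATF peak of RFC4 was 316 bp wide, with a fold enrichment of 5.16, a −log10 q of 4.52 and a rank of 42.9, below the level of 5. Its presence in a single list is therefore a weak call.

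RFC3 and RFC2 lay at opposite ends of the rank differences within the clamp group. RFC3 ranked 81.6 in siControl and 59.8 in siAATF, at fold enrichments of 8.11 and 6.18. RFC2 ranked 45.2 and 62.9, at 5.51 and 6.39. A difference as low as that of RFC3 was found in 2.34% of coding genes with a paired peak, and one as high as that of RFC2 in 4.77%. By −log10 q the differences were −11.2 for RFC3 and 11.2 for RFC2, smaller and of the same sign.

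RPA1, the large subunit of the single-strand binding complex, had a −log10 q of 79.1 in siControl and 70.3 in siAATF, and RPA2 had 49.3 and 45.0. LIG1, the ligase that seals lagging-strand fragments, had 34.9 and 35.8. FEN1, the flap endonuclease, had 23.7 and 12.3, and RPA3 had 10.98 and 9.65 at an alternative start 77.96 kb downstream of the annotated canonical one and facing UMAD1. No gene of this group held a core, so the RPA1 value, the fourth of the 41 in siControl, came from a peak without one. RPA1 shared its peak with SMYD4 at 103 bp, FEN1 with TMEM258 at 109 bp and LIG1 with ZSWIM9 at 336 bp. RPA3 had no peak at its canonical start in either list. LIG1 was the only replication gene with a peak inside the gene away from any coding start, 46.3 kb from its start, with a −log10 q of 5.02 and 6.20.

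FEN1 had the largest rank difference of the 41 genes. Its fold enrichment was 7.95 in siControl and 5.71 in siAATF, and its rank 79.6 and 52.2. The peak was 774 bp wide in siControl and 1069 bp in siAATF. A difference of −27.4 points or lower was found in 1.13% of coding genes with a paired peak, and by −log10 q the FEN1 difference was −13.1. The wider siAATF peak moved with the lower fold, and its part in the difference was not tested.

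Over the 40 genes with a paired peak, the median rank difference, siAATF minus siControl, was −1.01 points, beside 0.125 over all coding genes. By −log10 q it was 0.866, beside 0.432, so the sign depended on the ranking. The rank was lower in siAATF for 23 of 40 genes (57.5%, exact 95% interval 40.9 to 73.0), against 49.1% of all coding genes, and the rank by −log10 q was lower for 17 of 40 (42.5%), against 44.7%. Under both rankings 17 genes were lower, against 39% of all, and 17 were higher, against 45.2%. The value of −log10 q itself, which follows each library's depth, was lower in siAATF for 30 of 40 genes (75%), against 66% of all. These shares lay near the background, and their intervals include it.

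A difference above 20 points in either direction was found for 3 of 40 genes, FEN1, ORC1 and RFC3 (7.5%, exact 95% interval 1.57 to 20.4), against 6.54% of all coding genes. By −log10 q rank it was found for ORC1 alone (2.5%), against 2.32%. The highest differences were RFC2 at 17.7, MCM5 at 13.9, ORC2 at 11.9, ORC3 at 10.5, GINS4 at 8.34 and MCM10 at 7.82. By group the medians were −2.88 for licensing, −0.0549 for the helicase, −0.165 for polymerases, −5.37 for the clamp and −5.03 for single-strand binding and ligation. The clamp and single-strand medians rest on 5 genes each.

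**Figure D3:**
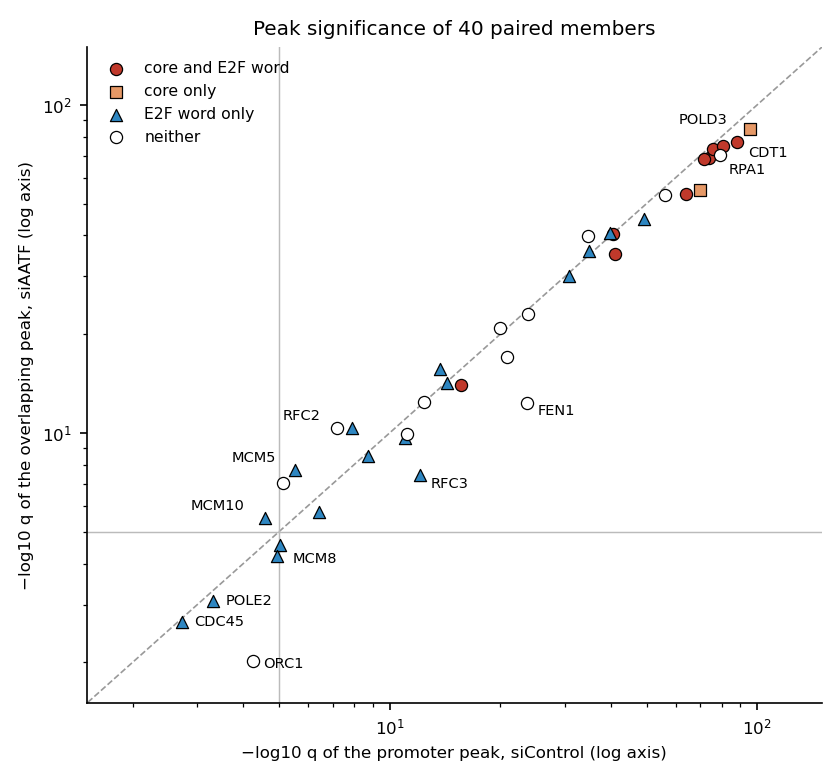
Peak significance in siControl (horizontal) and siAATF (vertical), as −log10 q on log axes, for the 40 genes with a paired peak, marked by the words in the peak. The dashed line is equality and the grey lines mark 5. Most genes with a core sit at the upper right, among some genes without one such as RPA1, while GINS3 with a core lies lower. FEN1, RFC3 and ORC1 lie farthest below the line.

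The scatter of −log10 q shows how the core and the peak's significance went together. Of the 41 genes, 11 held a core with up to 1 mismatch (26.8%, exact 95% interval 14.2 to 42.9), beside 23.8% of all coding genes with a peak. An exact core was held by 3 (7.32%), beside 3.88%, and the control word by 1 (2.44%), beside 5.31%. The replication genes thus held the core about as often as coding genes at large. The 15 matches comprised 13 upstream of the start, 12 within 100 bp of the peak midpoint and 15 inside the siAATF peak. The 11 genes with a core had a median rank by −log10 q of 93.4 in siControl, against 55.4 for the 29 without, beside 91.4 and 55.8 over all coding genes. Their median absolute rank difference was 1.38 points against 5.96, beside 3.13 and 6.13. Most peaks with a core were wider than the median of 765 bp over the 41 genes, up to 1684 bp in MCM4. The part of width in these comparisons was not tested. In the 301 bases about the midpoint a core was held by 9 of 40 genes (22.5%), beside 20.4% of all coding genes. GINS3 was the weakest gene with a core, at a −log10 q of 15.7, and RPA1 the strongest without.

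The rank differences were also set out by peak strength. Of the 17 replication genes ranked from 75 to 100 by −log10 q in siControl, none differed by more than 20 points and the largest difference was 9.09 points, beside 0.994% above 20 points among all coding genes there. Of the 11 genes between rank 50 and 75, 2 did (FEN1 and RFC3), beside 6.51%, and of the 10 between rank 25 and 50, 1 did (ORC1), beside 12.4%. The 2 genes below rank 25, CDC45 and POLE2, differed by at most 4.09 points, beside 16.9% above 20 points, so only over all coding genes did this share increase steadily towards weaker peaks. ORC1, RFC3 and FEN1 all lacked a core. Both peak strength and the core moved with the size of the differences, and the part of each was not tested.

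**Figure D4:**
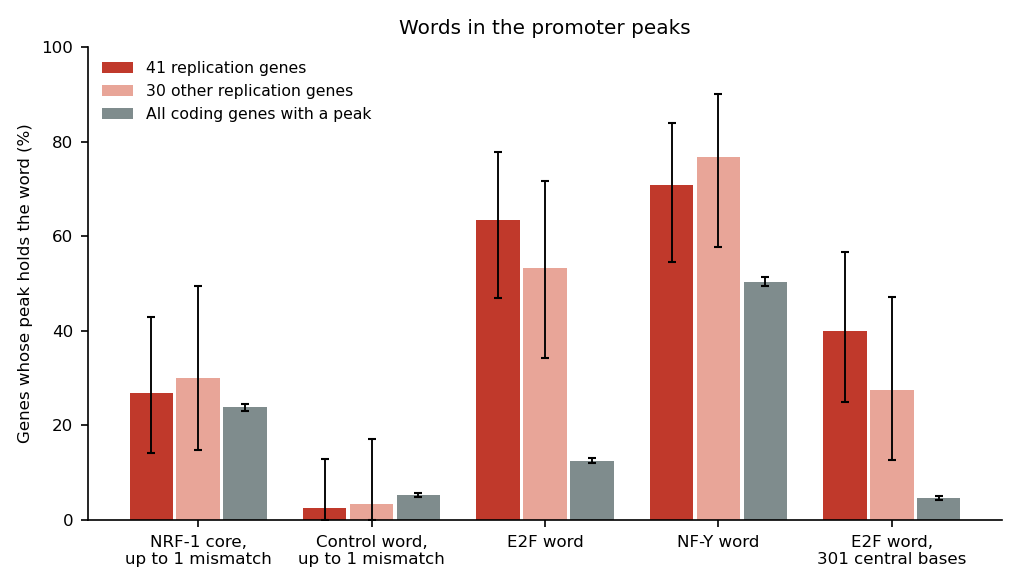
Share of genes (%) whose promoter peak holds each word, for the 41 replication genes, 30 other replication genes and all coding genes with a peak, with exact 95% intervals as bars. The last set of bars uses the 301 bases about the peak midpoint, and the E2F word is the word whose share differs most between replication genes and all coding genes (63.4% and 12.5%).

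An E2F word was held by the peaks of 26 of 41 replication genes (63.4%, exact 95% interval 46.9 to 77.9), beside 12.5% of all coding genes with a peak. The median peak width was 765 bp beside 851 bp, and the median GC content 64.5% beside 67.6%. The part of width and base composition in the E2F share was not tested, and the E2F words had no control word. In a fixed window of 301 bases about the midpoint the share was 16 of 40 (40%, 24.9 to 56.7), beside 4.65%. The 4 words gave 38 matches, of which 34 lay within 200 bp and 19 within 50 bp of the canonical start, and all 38 lay inside the siAATF peak too. CCAAT was held by 29 of 41 (70.7%, 54.5 to 83.9), beside 50.4%, and by 42.5% beside 25.1% in the 301 bases. As the bars show, the interval of the E2F share lay above the share of all coding genes, while that of the core included it.

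A core and an E2F word together were held by 9 genes (CDT1, MCM2, MCM4, MCM6, GINS3, POLA1, POLA2, POLD1 and PCNA), a core alone by ORC6 and POLD3, an E2F word alone by 17 genes, and neither by 13. Genes with an E2F word alone had a median rank by −log10 q of 46.9 in siControl, against 93.4 for those with both. Over all coding genes these medians were 58.1 and 91.6. The genes with neither had 67.9, beside 55.4, and RPA1, ORC4 and POLD2 were the strongest of them.

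**Figure D5:**
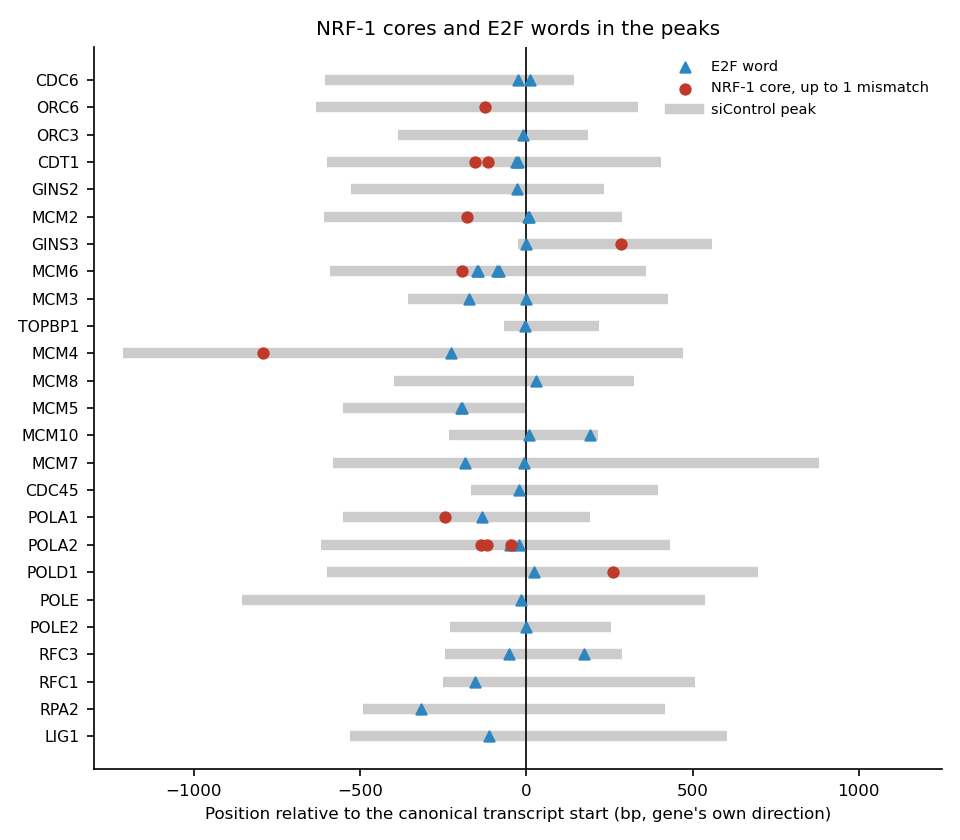
Positions of NRF-1 cores (circles) and E2F words (triangles) in base pairs from the canonical transcript start, in the gene's own direction, within the siControl peak (grey bars) of the 25 replication genes that hold either word and whose peak is at the canonical start. The triangles gather at the start and most circles lie upstream of it, farthest in MCM4.

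The map of word positions shows the same by gene. The median position of the E2F matches within 1 kb was −27.5 of the canonical start, and that of the 12 cores within 1 kb was −134.5. In CDT1, MCM2, MCM6, POLA1 and ORC6 the core lay upstream of the start by more than 100 bases. POLD1 and GINS3 had theirs downstream.

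A further list of 30 replication genes outside the 41, such as primase subunits, DNA helicases, ribonucleotide reductase and checkpoint factors, gave similar counts. A promoter peak was present for 28 of 30 in siControl (93.3%, exact 95% interval 77.9 to 99.2), against 61.1% of all coding genes. In siAATF it was present for 30 of 30, against 60.7%. The genes without a siControl peak were MTBP, a partner in origin firing, and CHAF1A, the large subunit of the chromatin assembly factor. The siAATF peak of MTBP was weak, with a −log10 q of 2.12 and ranks of 14.7 by fold and 8.45 by −log10 q. That of CHAF1A had a −log10 q of 5.05, just above 5, and ranks of 3.18 by fold and 33.4 by −log10 q. A core was held by 9 of 30 (30%), beside 23.8% of all coding genes with a peak, and an E2F word by 16 of 30 (53.3%), beside 12.5%. None of the 28 paired genes had a rank difference above 20 points (exact 95% interval 0 to 12.3%), against 6.54% of all coding genes. The core share and this last count lay near the background.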

How the data were processed

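NRF-1 ChIPmentation peaks of U251 cells were analysed from 2 deposited broadPeak lists, 1 for siControl and 1 for siAATF. According to the methods and the labels, the authors aligned paired-end reads to hg19 with Bowtie2 and called peaks with MACS2 through an nf-core pipeline written for ATAC-seq, at default settings, so that weak peaks remain in the lists; versions of both tools and any input control are not given in the sources used here. The deposited values are the fold enrichment over local background (a ratio within 1 library), the −log10 p and the −log10 q of each peak; the deposited score is a rescaled −log10 q, and neither it nor the −log10 p was used. Since the lists hold no reads, depth is unknown, and fold enrichments were compared as ranks within each list. A lower depth, or a change in background, can move a fold enrichment and a −log10 q in all peaks of a list.

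Genes and transcript starts came from GENCODE release 44 lifted to GRCh37, sequences from the GRCh37 assembly. Shares carry exact Clopper-Pearson intervals at 95%. Python 3.11.15 was used with pandas 2.3.3, scipy 1.17.1 and numpy 2.4.6. Promoter overlap, ranking, pairing and the core search were tested on simulated peaks and sequences. The search for E2F and CCAAT words and the alternative settings were not tested in this way. All 41 genes are accounted for. Those named with values are genes without a peak in a list, the 6 of highest −log10 q, the 6 highest and 6 lowest rank differences, the extremes of each group, genes with several promoter peaks, with a core, or with a start shared with another coding gene. Other genes named were chosen after their values were seen. The genes, lists and alternatives were chosen with earlier results of these data known. No test between conditions was possible with 1 list each.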

Additional observations from a re-analysis of the deposited data

How the results depend on the processing

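The values were recomputed under other promoter windows (500 bp and 2 kb), thresholds, rankings, pairings and choices of peak, 131 values over 20 results. Of these, 118 kept their sign and stayed within the interval of the reported median or, for counts, within 1.5 times the reported count. These limits are wide. For a group of 8 genes the interval is the whole range of its values, as 27.1 to 99.6 for polymerases in siControl. The polymerase median of 65.1 with the nearest peak thus counted as kept, as did 30 genes with a peak in place of 40. The 500 bp and 2 kb windows left the medians unchanged, so 118 is no measure of stability. The lowest counts of genes with a peak came with the 10000 peaks of highest fold in each list, which left 30 of 41 genes for siControl and 32 for siAATF, among them 7 and 8 of the 14 helicase genes. The median rank of the helicase genes in siControl was 37.8 when ranked among promoter peaks only. Ranked by −log10 q, the number of genes with a difference above 20 points was 1, and an exact core left 3 genes, as it admits fewer matches. The median rank differences near 0 changed sign. By −log10 q rank they were 0.866 for all 40 genes, 0.220 for licensing, 1.06 for the helicase and 1.33 for polymerases. The helicase median was 0.527 with both lists cut at a −log10 q of 5 and 0.760 with a reciprocal overlap of 50%. The polymerase median was 0.511 with the peak nearest the canonical start and with the canonical start only. Without the 4 genes whose peak is over 1 kb from the canonical start, an alternative chosen after the values were seen, the helicase median was 0.760 and the polymerase median 0.0882. Apart from the exact core, the cause of these changes was not tested. FEN1, ORC1 and RFC3 were lower and RFC2 and MCM5 higher in siAATF under every alternative that gave a value. Most other paired genes kept their sign too, even with small differences, such as POLA1 at −0.418 and MCM6 at 0.857 points. All alternatives reuse the same lists, so a constant sign does not set these genes apart. No paired analysis was possible because each condition has 1 list. Unknown depth limits what can be said of RFC4, ORC1, CDC45, POLE2, TOPBP1, MCM8 and MCM10, whose peaks lie near or under a −log10 q of 5.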
